A study of Homo sapiens with 12 samples.

Results

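Annexins and the S100 proteins that bind them were followed by RNA-seq through 4 stages of blood cell formation from human embryonic stem cells. The genes were taken from the expression table by their symbols: 6 annexins (ANXA1, ANXA2, ANXA3, ANXA4, ANXA5 and ANXA6) and 4 S100 genes (S100A4, S100A6, S100A10 and S100A11). All 10 were found among the 56593 distinct symbols of the expression table, each on a single line, and all 10 were among the 14840 genes that passed the filter on low values. The study asked how gene expression changes along hematopoietic differentiation. Undifferentiated H1 cells, an established embryonic stem cell line, were compared with a series of populations derived from them. APLNR+ cells, collected on day 2, are mesoderm and bear the apelin receptor. CD31+CD34+ cells of day 5 are endothelial progenitors with the potential to form blood, and CD43+ cells of day 8 are early blood progenitors. The 12 libraries, 3 from each population, share the parental line, and no genetic change was made in them. Per the labels, cells received activin A and BMP4 for the first 2 days and then VEGF and bFGF, all in Custom mTeSR1 medium. Everything therefore rests on 1 cell line, and the labels do not say whether the 3 libraries of a population came from separate cultures. The study's methods speak of independent experiments for its analyses in general, without naming these libraries. The p-values measure only the spread between these libraries, which may be technical.

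Annexins are proteins that attach to acidic phospholipids of membranes when calcium rises, and they take part in membrane repair, vesicle traffic and the anchoring of the actin cytoskeleton. Their variable N-terminal tails are docking sites for S100 proteins, small dimers of the EF-hand family. S100A10 joins ANXA2 in a complex that binds plasminogen and its activators at the cell surface, and S100A11 docks on the tails of ANXA1 and ANXA2. S100A4 binds non-muscle myosin and is widely used as a marker of fibroblasts and migrating cells, whereas S100A6 (calcyclin) binds several annexins and the ubiquitin ligase adaptor CACYBP. The 4 S100 genes lie in the S100 cluster on chromosome 1, while the annexins are scattered over chromosomes 15 (ANXA2), 2 (ANXA4), 4 (ANXA3 and ANXA5), 5 (ANXA6) and 9 (ANXA1).

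The DNA just upstream of 4 of the genes is shown because they form the pairs on which the results below turn, ANXA2 with its partner S100A10 and the close neighbours S100A6 and S100A4. Each window holds the 250 bases before the RefSeq start of the gene on build GRCh38.p14, 5′ to 3′ on the strand of the gene. Capitals mark matches, on either strand, to the core promoter motif TATAAA, the GC box motif GGGCGG, the upstream promoter motif CCAAT, the AP-1 motif TGANTCA and the E-box motif CAGGTG, and neighbouring GC boxes can overlap. The windows are chr15:60397987-60398236 (ANXA2), chr1:151993860-151994109 (S100A10), chr1:153535992-153536241 (S100A6) and chr1:153545807-153546056 (S100A4), all on the minus strand.
ANXA2: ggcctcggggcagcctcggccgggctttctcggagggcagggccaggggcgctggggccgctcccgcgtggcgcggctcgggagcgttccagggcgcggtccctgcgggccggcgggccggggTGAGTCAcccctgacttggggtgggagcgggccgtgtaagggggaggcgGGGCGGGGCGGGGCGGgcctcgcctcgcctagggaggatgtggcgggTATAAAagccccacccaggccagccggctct
S100A10: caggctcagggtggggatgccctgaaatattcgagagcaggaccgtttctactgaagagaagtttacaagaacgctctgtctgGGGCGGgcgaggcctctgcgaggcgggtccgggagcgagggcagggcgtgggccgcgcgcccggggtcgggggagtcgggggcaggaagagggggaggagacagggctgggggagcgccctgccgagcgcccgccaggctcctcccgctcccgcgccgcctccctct
S100A6: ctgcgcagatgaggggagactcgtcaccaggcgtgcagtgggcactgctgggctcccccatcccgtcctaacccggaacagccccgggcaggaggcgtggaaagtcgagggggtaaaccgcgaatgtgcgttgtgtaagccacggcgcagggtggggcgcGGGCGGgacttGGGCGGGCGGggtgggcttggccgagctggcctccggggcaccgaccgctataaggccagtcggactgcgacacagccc
S100A4: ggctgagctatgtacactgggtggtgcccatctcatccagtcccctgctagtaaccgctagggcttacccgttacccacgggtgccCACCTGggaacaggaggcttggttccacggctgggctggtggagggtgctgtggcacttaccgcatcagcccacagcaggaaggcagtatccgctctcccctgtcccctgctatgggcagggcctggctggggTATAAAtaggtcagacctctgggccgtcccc
The ANXA2 window held a TATA box 31 bases before the start, 3 GC boxes and an AP-1 motif, whereas that of S100A10 held a single GC box, the motif they share, and none of the others. The windows of S100A6 and S100A4 had no motif in common: S100A6 had 3 GC boxes, and S100A4 had a TATA box 31 bases before the start and an E-box. S100A4 was the poorer in CpG dinucleotides, with an observed to expected ratio of 0.284 against 0.803 for S100A6, 0.77 for ANXA2 and 0.786 for S100A10, and a median of 0.558 over all 35116 windows of this length. Among those windows 10.7% held a TATA box, 42.6% a GC box, 32% a CCAAT box, 6.57% an AP-1 motif and 17.5% an E-box. The motifs were picked with the expression values known, and a match describes letters only. The expression values come from a different build (hg19) and do not depend on these windows.

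Levels are given as FPKM, a read density per unit of transcript length and of library size, which can be compared between genes because it is per length. Read totals are not part of such values. Judged by how the lowest values were spaced, replicate 1 of each population had 0.551 to 0.747 times the depth of CD43+ replicate 3, and all the other libraries had 1.0 to 1.27 times. Genes of small RNAs held 10.4% to 66.2% of the summed FPKM of a library, and EEF1A1, a translation factor of all cells, stood at 0 in both replicates 2 and 3 of H1, APLNR+ and CD43+ cells, so a 0 in this table can be a failed estimate. Marker genes followed the labels of the populations: of 9 pluripotency markers 8 fell by day 2, all 9 mesoderm markers rose at that step, 9 of 10 endothelial markers rose from day 2 to day 5, and 7 of 8 tested blood progenitor markers rose from day 5 to day 8. PTPRC, the pan-leukocyte gene among the blood markers, did not pass the filter, which asked for 1 FPKM in at least 3 libraries. The mesoderm marker TBX6 reached 1 FPKM in APLNR+ libraries alone, so the filter partly set its rise.

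Together the 10 genes summed to 309 to 323 FPKM in the H1 libraries, 757.5 to 867.9 in APLNR+, 1446 to 1710 in CD31+CD34+ and 1318 to 1424 in CD43+ libraries. As a share of the FPKM of all protein-coding genes this was 0.072% to 0.075%, 0.215% to 0.238%, 0.34% to 0.397% and 0.271% to 0.335% in the same order. The sum was thus lowest in every H1 library, and its make-up differed along the way, as the plot of single libraries shows. No gene had its highest mean in H1: ANXA1 and ANXA3 peaked at the APLNR+ stage, S100A4 and ANXA4 at the CD43+ stage, and the other 6 at the CD31+CD34+ stage. With the 4 populations put in order for each gene, 8 of the 30 pairs of neighbours did not differ past an adjusted p of 0.05 (limma). The order was set by the same libraries that were then compared, and no like count was made over all genes. At that threshold alone, 3376 of all 14840 tested genes rose and 5218 fell from H1 to APLNR+ cells. In these bulk samples, fewer cells of a type and less RNA per cell cannot be told apart.

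**Figure D1:**
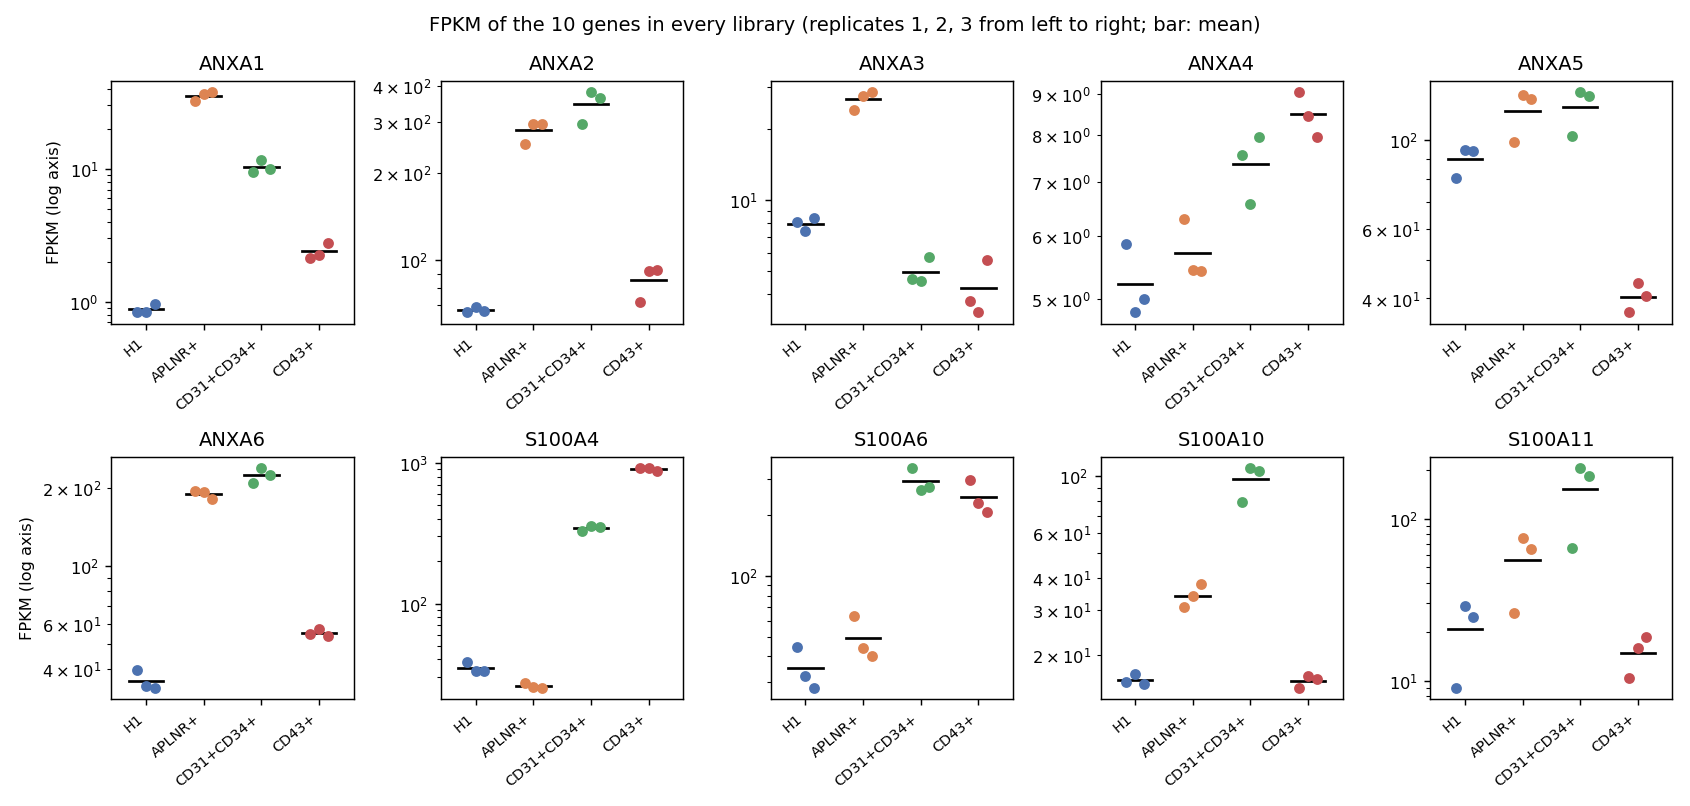
FPKM (log axis, scaled separately in each panel) of each of the 10 genes in the 12 libraries, grouped by population on the horizontal axis; points are replicates 1, 2 and 3 from left to right and bars are means. ANXA1 and ANXA3 peak in APLNR+ cells and S100A4 in CD43+ cells, while ANXA2, ANXA6, S100A10 and S100A11 are high in CD31+CD34+ and low in CD43+ cells.

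A gene was called changed at an adjusted p under 0.05 (limma, adjusted over all tested genes) together with a 2-fold or larger change of log2(FPKM + 1). From H1 to APLNR+ cells 6 of the 10 genes rose (ANXA1, ANXA2, ANXA3, ANXA6, S100A10 and S100A11) and 0 fell, where 8.3% of all tested genes rose and 7.62% fell. From APLNR+ to CD31+CD34+ cells 4 rose, all of them S100 genes, and 2 annexins fell (ANXA1 and ANXA3), where 12.5% of all genes rose and 17.1% fell. Only S100A4 among the 10 rose from CD31+CD34+ to CD43+ cells, and 6 fell (ANXA1, ANXA2, ANXA5, ANXA6, S100A10 and S100A11), where 5.58% of all genes rose and 8.79% fell. Between CD43+ and H1 cells directly, S100A4 and S100A6 were raised and ANXA5 was lowered, beside 14.6% and 22.5% of all genes. The median log2 change of the 10 genes over these 4 comparisons was 1.22, 0.31, -1.65 and 0.47, and that of all tested genes -0.12, -0.01, -0.01 and -0.10. With replicates 2 and 3 alone the counts were the same in each comparison. For 3 libraries on each side the smallest p of an exact permutation test is 0.1, the value that every comparison reaches whose libraries do not overlap.

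**Figure D2:**
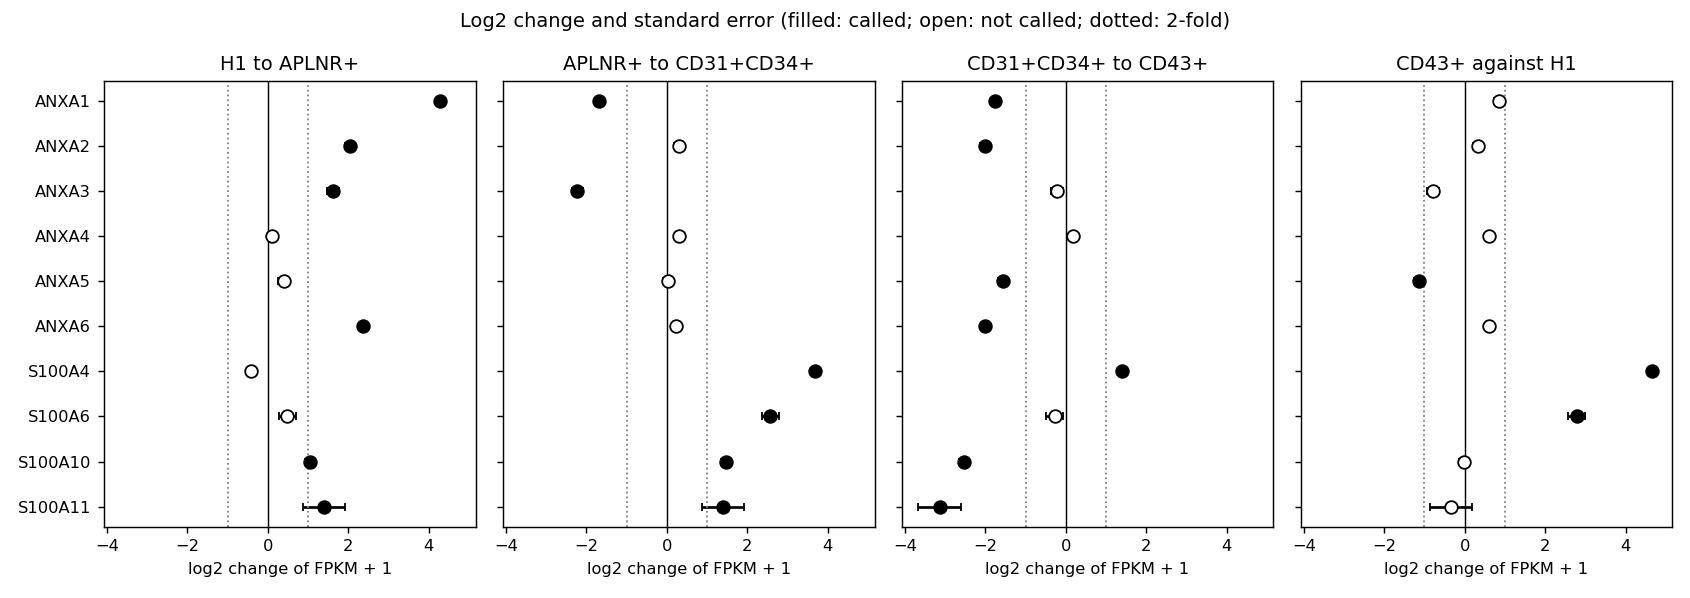
Log2 change of FPKM + 1 (horizontal axis) of the 10 genes (vertical axis) in 4 comparisons, with standard errors from limma; filled points passed both thresholds and dotted lines mark a 2-fold change. Filled points lie to the right for 6 genes at the first step and to the left for 6 genes at the third, and S100A11 has the widest errors.

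ANXA2 and S100A10, the partners of the plasminogen-binding complex, both rose at the first step and both fell at the last. ANXA2 stood at 66.0, 69.0 and 66.8 FPKM in the H1 libraries, 253, 295 and 296 in APLNR+, 296, 382 and 365 in CD31+CD34+, and 71.7, 92.1 and 92.5 in CD43+ libraries. Its APLNR+ and CD31+CD34+ libraries met at 296 FPKM and lay above all others. The rise from H1 was 4.19-fold (log2 change 2.05 ± 0.12 SE, adjusted p = 4.138e-08) and the fall to CD43+ cells 4.07-fold (log2 change -2.01 ± 0.12, adjusted p = 6.365e-08). Between those steps its log2 change was 0.30 ± 0.12 (adjusted p = 0.04533), under the 2-fold limit, and CD43+ cells kept 0.33 ± 0.12 over H1 (adjusted p = 0.02854), also under it. The processed pseudogene ANXA2P2 shares 5.91% of the distinct 50-base stretches pooled over all annotated ANXA2 transcripts, so the part shared with any single transcript can differ. Its FPKM averaged 0.41, 1.33, 1.62 and 0.329 along the 4 populations. How reads were divided between the gene and its copy was not tested.

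S100A10 read 15.7, 16.9 and 15.4 FPKM in H1, 30.7, 33.9 and 37.8 in APLNR+, 79.3, 107 and 104 in CD31+CD34+ and 14.9, 16.6 and 16.2 in CD43+ libraries. Its level climbed in 2 called steps, and only its H1 and CD43+ libraries overlapped. It rose 2.13-fold to APLNR+ cells (log2 change 1.04 ± 0.12, adjusted p = 1.292e-05) and a further 2.84-fold to CD31+CD34+ cells (1.47 ± 0.12, adjusted p = 3.683e-07). The first of these calls is close to the 2-fold limit and is lost without APLNR+ replicate 3, where the log2 change is 0.97. To CD43+ cells S100A10 fell 6.11-fold (log2 change -2.53 ± 0.12, adjusted p = 6.914e-09). Its level there could not be told from that in H1 (-0.01 ± 0.12, adjusted p = 0.9443), and the sign of the difference turned with quantile normalization (0.10) and median-of-ratios scaling (0.15). The ratio of S100A10 to ANXA2 FPKM was accordingly uneven: 0.231 to 0.245 in the H1 libraries, 0.115 to 0.128 in APLNR+, 0.268 to 0.285 in CD31+CD34+ and 0.175 to 0.207 in CD43+ libraries, with no overlap between populations.

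ANXA1, an inhibitor of phospholipase activity and a ligand of formyl peptide receptors, showed the largest rise of the 10 genes at the first step. The H1 libraries held 0.832, 0.845 and 0.963 FPKM of it, and the APLNR+ libraries 32.3, 36.8 and 37.8. It then stood at 9.47, 11.7 and 10.05 FPKM in CD31+CD34+ and 2.15, 2.26 and 2.77 in CD43+ libraries. No libraries of different populations overlapped, and the order APLNR+, CD31+CD34+, CD43+, H1 was past an adjusted p of 0.05 at every place. The ratio of mean FPKM of APLNR+ to H1 cells was 40.5 (log2 change 4.28 ± 0.11, adjusted p = 2.153e-11). ANXA1 then fell by 1.69 ± 0.11 and again by 1.75 ± 0.11 on the log2 scale (adjusted p = 5.008e-08 and 6.764e-08). CD43+ cells kept a log2 difference of 0.85 ± 0.11 over H1 (adjusted p = 1.49e-05), which is under the 2-fold limit but passes it at 1.34 with a pseudocount of 0.1 and at 1.01 after quantile normalization.

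S100A11, which docks on ANXA1 and ANXA2, had the widest spread of the 10 genes. The H1 libraries held 8.98, 29.1 and 24.6 FPKM, APLNR+ 26.1, 76.0 and 64.8, CD31+CD34+ 65.6, 206 and 184, and CD43+ 10.4, 15.9 and 18.5. The first library of each population was the lowest, and as a result H1, APLNR+ and CD31+CD34+ libraries overlapped at each step although the means rose. The log2 change was 1.39 ± 0.52 to APLNR+ cells (adjusted p = 0.03841) and 1.41 ± 0.52 to CD31+CD34+ cells (adjusted p = 0.02856). Both calls are weak. The first was lost without H1 replicate 1 (log2 change 0.90, adjusted p = 0.1635), without APLNR+ replicate 2 (adjusted p = 0.1321) or without APLNR+ replicate 3 (adjusted p = 0.1125). The second was lost without APLNR+ replicate 1 (log2 change 0.94, adjusted p = 0.1245), without CD31+CD34+ replicate 2 (adjusted p = 0.1071) or without CD31+CD34+ replicate 3 (adjusted p = 0.09265). The fall to CD43+ cells was 10.2-fold (log2 change -3.14 ± 0.52, adjusted p = 0.0003111), with every CD43+ library below every CD31+CD34+ library, and no omitted library ended that call.

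Read within replicate numbers, S100A11 moved in the same direction at each step. Replicate 1 gave log2 changes of 1.44, 1.30 and -2.55 at the 3 successive steps, replicate 2 gave 1.36, 1.43 and -3.62, and replicate 3 gave 1.36, 1.49 and -3.25, so the numbers lay closer together at the first 2 steps than at the third. The labels give no pairing beyond the number at any step. With replicates 2 and 3 alone the adjusted p at the first 2 steps was 6.172e-05 and 1.799e-05. Between CD43+ and H1 cells the numbers parted: 0.19 in replicate 1, -0.83 in replicate 2 and -0.39 in replicate 3. Replicate 1 lay below the mean of the other replicates by 1.47, 1.39, 1.56 and 0.67 on the log2 scale along the 4 populations. The mean of these gaps was -1.27, and only 29 of 14840 genes had a lower one, where the median gene had -0.08. S100A6 leaned the other way, higher in replicate 1 by a mean of 0.49, a value exceeded by 128 genes. The other 8 genes had mean gaps between -0.28 (ANXA5) and 0.14 (ANXA4), inside the 5th to 95th percentiles of all genes, -0.40 and 0.26. Replicate 1 was also the shallowest library of each population, as given above, and the part of depth in these gaps was not tested.

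**Figure D3:**
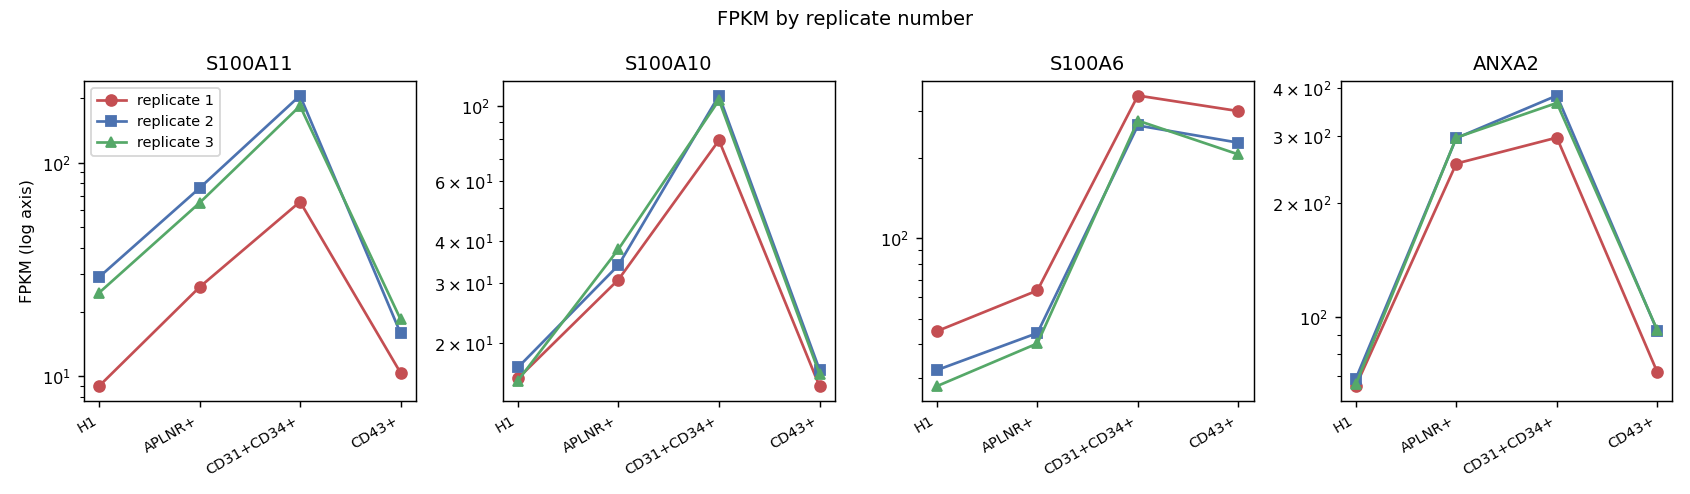
FPKM (log axis, scaled separately in each panel) of S100A11, S100A10, S100A6 and ANXA2 in the 4 populations (horizontal axis), with a line for each replicate number. For S100A11 the line of replicate 1 runs below the others throughout and for S100A6 it runs above them, while the steps of the 3 lines have the same direction from H1 to CD43+ cells.

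ANXA6, a large annexin with a duplicated membrane-binding core, was measured at 39.7, 34.7 and 33.9 FPKM in H1, 195, 193 and 181 in APLNR+, 209, 239 and 225 in CD31+CD34+, and 54.5, 57.4 and 53.9 in CD43+ libraries. The populations did not overlap, and APLNR+ and CD31+CD34+ cells formed the high pair. ANXA6 rose 5.26-fold at the first step (log2 change 2.37 ± 0.09, adjusted p = 4.213e-10) and fell 4.06-fold at the last (-2.001 ± 0.09, adjusted p = 3.126e-09). Between those steps its log2 change was 0.24 ± 0.09 (adjusted p = 0.02429), and this sign turned after quantile normalization (-0.05) and after scaling to protein-coding genes (-0.00269). CD43+ cells stood 0.60 ± 0.09 above H1 on the log2 scale (adjusted p = 3.878e-05), under the 2-fold limit.

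ANXA5, the phosphatidylserine binder used to stain dying cells, was already high in H1, at 80.4, 94.8 and 94.3 FPKM. It held 99.0, 130 and 127 FPKM in APLNR+, 103, 132 and 129 in CD31+CD34+, and 36.9, 43.7 and 40.7 in CD43+ libraries. APLNR+ and CD31+CD34+ libraries overlapped closely and the CD43+ libraries lay below all others. ANXA5 did not pass the 2-fold limit from H1 to APLNR+ cells (log2 change 0.39 ± 0.13, adjusted p = 0.0232), and its change from there to CD31+CD34+ cells was 0.03 ± 0.13 (adjusted p = 0.8291). It fell 3.00-fold to CD43+ cells (-1.56 ± 0.13, adjusted p = 1.08e-06). It was the only one of the 10 genes called lower in CD43+ than in H1 cells (-1.13 ± 0.13, adjusted p = 6.718e-06), and median-of-ratios scaling brought that difference to -0.97, under the 2-fold limit.

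ANXA3, an annexin found in neutrophil granules, was high at the mesoderm stage and low on either side of it. Its libraries read 8.12, 7.37 and 8.41 FPKM in H1, 24.1, 27.5 and 28.7 in APLNR+, 4.63, 4.54 and 5.73 in CD31+CD34+, and 3.76, 3.35 and 5.60 in CD43+ cells. Only the last 2 populations overlapped. ANXA3 rose 3.36-fold (log2 change 1.63 ± 0.15, adjusted p = 1.651e-06) and then fell 5.39-fold (-2.22 ± 0.15, adjusted p = 6.771e-08), to a level that lay 0.59 ± 0.15 below H1 (adjusted p = 0.00285), short of 2-fold. The further difference to CD43+ cells, -0.21 ± 0.15, was within the spread (adjusted p = 0.259).

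ANXA4, an annexin abundant in many epithelia, was called in 0 of the 4 comparisons. It stood at 5.85, 4.81 and 5.00 FPKM in H1, 6.28, 5.44 and 5.42 in APLNR+, 7.55, 6.57 and 7.96 in CD31+CD34+, and 9.05, 8.46 and 7.96 in CD43+ libraries. Neighbouring populations overlapped at the first and the last step. Its log2 changes of 0.11, 0.32 and 0.18 at the 3 steps all had the same sign, and together they put CD43+ cells 0.61 ± 0.10 above H1 (1.63-fold, adjusted p = 0.0001779), under the 2-fold limit.

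S100A4, the myosin-binding S100 protein, followed another course. The H1 libraries held 38.6, 33.3 and 32.9 FPKM and the APLNR+ libraries 27.2, 25.4 and 25.0. The level then stood at 330, 356 and 350 FPKM in CD31+CD34+ and 922, 925 and 874 in CD43+ libraries, the highest values of any of the 10 genes. The populations did not overlap, and S100A4 was the only one of the 10 with its lowest mean in APLNR+ cells. The log2 difference from H1 to APLNR+ cells was -0.42 ± 0.08 (adjusted p = 0.001046), short of 2-fold. S100A4 then rose 13.3-fold to CD31+CD34+ cells (log2 change 3.69 ± 0.08, adjusted p = 1.328e-11) and 2.63-fold to CD43+ cells (1.39 ± 0.08, adjusted p = 4.974e-08), ending 26.0-fold above H1 (4.66 ± 0.08, adjusted p = 7.27e-13). Markers of mature myeloid cells were also higher after the last step. Their summed FPKM was 3.24 to 4.29 in CD31+CD34+ libraries and 59.9 to 89.2 in CD43+ libraries. All 5 tested of the 10 rose, where 5.58% of all tested genes rose. These were TYROBP, FCER1G, LYZ, CSF1R and S100A9, with means of 33.4, 24.8, 13.2, 4.84 and 1.22 FPKM in CD43+ cells. TYROBP, CSF1R and S100A9 reached 1 FPKM in CD43+ libraries alone, and LYZ also in CD31+CD34+ replicate 3. These genes passed the filter through their CD43+ libraries, so it partly set their rise. Of the others S100A8 was listed at 0 in every library, and CD14, MPO, CTSS and ITGAM averaged 0.235 FPKM or less there. Megakaryocyte markers summed to 4.90 to 7.20 FPKM in CD31+CD34+ and 173 to 231 FPKM in CD43+ libraries, and all 8 rose. Of these GP9, GP1BA, PPBP, TUBB1 and ITGB3 reached 1 FPKM in CD43+ libraries alone, and GP1BB also in CD31+CD34+ replicate 2. The filter partly set the rise of these genes as well. The part of these cells in the rise of S100A4 was not tested.

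S100A6 rose at the same step as S100A4 and was not called at the last. Its libraries read 44.8, 32.0 and 27.9 FPKM in H1, 63.7, 44.1 and 40.3 in APLNR+, 342, 264 and 276 in CD31+CD34+, and 299, 228 and 206 in CD43+ cells. The first 2 populations overlapped with each other, as did the last 2, and the high pair lay well above the low pair. S100A6 rose 5.96-fold from APLNR+ to CD31+CD34+ cells (log2 change 2.57 ± 0.21, adjusted p = 3.89e-07). Its log2 changes at the other steps were 0.49 ± 0.21 (adjusted p = 0.06455) and -0.27 ± 0.21 (adjusted p = 0.2896), and CD43+ cells remained 6.998-fold above H1 (2.78 ± 0.21, adjusted p = 1.218e-07). The ratio of S100A6 to S100A4 FPKM therefore ran from 0.848 to 1.16 in H1 libraries over 1.62 to 2.34 in APLNR+ and 0.743 to 1.04 in CD31+CD34+ to 0.236 to 0.325 in CD43+ libraries.

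The sums of several marker lists also changed along the populations. Stromal and fibroblast markers summed to 230 to 261 FPKM in H1, 556 to 702 in APLNR+, 769 to 856 in CD31+CD34+ and 227 to 303 in CD43+ libraries. The sum was highest in the same pair of populations as ANXA2 and ANXA6, but the genes of the list took different courses. Of 9 tested genes of this list 5 rose and 1 fell at the first step, 5 rose and 2 fell at the second, and 1 rose and 3 fell at the third. COL1A2 averaged 21.9, 92.5, 251 and 59.6 FPKM along the populations, COL1A1 7.37, 12.4, 85.0 and 19.2, and TAGLN 76.4, 466, 274 and 15.7. COL3A1 went from 0.14 FPKM in H1 to 44.2 in CD43+ cells, and DCN was at 0.0726 FPKM or less on average in every population. THY1 averaged 137, 22.0, 145 and 75.0 FPKM along the populations, lowest in APLNR+ cells. ACTA2 (0.922, 1.53, 13.35 and 34.8 FPKM) and PDGFRB (3.12, 11.4, 13.2 and 17.5 FPKM) were highest in CD43+ cells. Epithelial markers summed to 767 to 795, 1096 to 1229, 1428 to 1612 and 225 to 285 FPKM along the same populations, with KRT8, KRT18 and KRT19 at the highest means. CDH1 and EPCAM averaged 34.4 and 45.5 FPKM in H1 and 1.68 and 2.21 in CD43+ cells. Of the 9 epithelial genes 2 rose (KRT8 and KRT19) and 5 fell at the first step, CDH1 and EPCAM among them. At the second step 0 rose and 2 fell, and at the third 0 rose and 8 fell. Endoderm markers summed to 8.51 to 10.03, 64.2 to 70.7, 60.6 to 66.0 and 15.8 to 17.6 FPKM. Of 6 tested endoderm genes 3 rose and 1 fell at the first step. At the second step 2 rose and 1 fell, and at the third 1 rose and 4 fell. HNF4A, raised at the second, reached 1 FPKM in CD31+CD34+ libraries alone, and TTR, raised at the third, in CD43+ libraries alone. The filter thus partly set these rises. The shares of all tested genes raised and lowered at these steps were 8.3% and 7.62%, 12.5% and 17.1%, and 5.58% and 8.79%. The part of such cells in the annexin changes was not tested.

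Across the 12 libraries the log2 levels of the 10 genes form 45 pairs with a median Pearson correlation of 0.344. These are descriptions without a test, since the 3 libraries of a population share its state and the points fall into 4 clusters. The closest pair was ANXA2 with ANXA6 (0.989), followed by S100A4 with S100A6 (0.924), ANXA4 with S100A6 and with S100A4 (both 0.918), S100A10 with S100A11 (0.918) and ANXA2 with S100A10 (0.904). ANXA3 and S100A4 were the most opposed (-0.819), and 12 pairs were below 0. Among 5789 other genes with a mean of at least 10 FPKM, the 3 most like ANXA1 were ANKRD1 (0.997), SIPA1L2 (0.994) and BMP4 (0.992). Those most like ANXA6 were SOX17, EPHA2 and PFKFB3 (0.995 to 0.996), and those most like ANXA2 were ACTC1, AMOTL1 and SLPI (0.985 to 0.994). For S100A4 they were LAMTOR1, FERMT3 and MYO1F (0.996 to 0.998), for S100A6 TSPO, SSBP4 and TSEN34 (0.992 to 0.994), and for S100A10 TUBA1A, PLK1 and ID3 (0.976 to 0.988). The nearest genes of the rest were less alike for ANXA4 (CLCN7, 0.965) and S100A11 (NTAN1, 0.954) than for ANXA3 (MFSD14A, 0.987) and ANXA5 (RBFOX2, 0.974).

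Of 28 genes encoding receptors and binding partners of these proteins, 24 were tested. From H1 to APLNR+ cells 5 rose and 1 fell, from APLNR+ to CD31+CD34+ cells 7 rose and 6 fell, and from CD31+CD34+ to CD43+ cells 0 rose and 6 fell. Their median log2 changes were 0.23, 0.41 and -0.13. The shares of all tested genes raised and lowered at these steps were 8.3% and 7.62%, 12.5% and 17.1%, and 5.58% and 8.79%. VIM, the intermediate filament vimentin, rose from a mean of 42.4 FPKM in H1 to 484 in APLNR+ cells (log2 change 3.48 ± 0.16, adjusted p = 2.685e-09). It averaged 946 FPKM at the CD31+CD34+ stage and 297 at the CD43+ stage, a fall (-1.67 ± 0.16, adjusted p = 2.53e-06). MYH9, the myosin heavy chain bound by S100A4, averaged 39.0, 68.3, 110 and 97.8 FPKM along the populations. It was called at 0 of the 3 steps, but CD43+ cells stood above H1 (log2 change 1.30 ± 0.09, adjusted p = 3.627e-08). CACYBP, the adaptor bound by S100A6, fell where S100A6 rose: it averaged 78.8 FPKM in APLNR+ and 29.9 in CD31+CD34+ cells (log2 change -1.37 ± 0.08, adjusted p = 3.378e-08). The calpain subunits CAPN1 and CAPNS1 rose at that same step (1.86 ± 0.15 and 1.35 ± 0.13). The actins ACTB and ACTG1 and the actin cross-linker FLNA, which with VIM had the highest means of the list, were called at 0 of the 3 steps. Among less abundant partners, CD44 and CAPN2 were raised at the first and the second step. SUGT1 was lowered at the second, and ITGB1 at the third.

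A pair of partners was singled out after their values were seen. AHNAK, the giant scaffold held at the membrane by S100A10 and ANXA2, was at 1.23, 0.417 and 0.581 FPKM in H1, 48.9, 44.9 and 43.5 in APLNR+, 70.5, 57.1 and 54.8 in CD31+CD34+, and 12.9, 13.3 and 12.5 in CD43+ libraries. It rose by a log2 change of 4.77 ± 0.15 at the first step (adjusted p = 1.367e-10) and fell by 2.14 ± 0.15 at the last (adjusted p = 2.211e-07). DYSF, the membrane repair protein dysferlin, rose later, from a mean of 1.06 FPKM in APLNR+ to 52.0 in CD31+CD34+ cells (4.68 ± 0.10, adjusted p = 7.974e-12), and fell to 18.8 in CD43+ cells (-1.42 ± 0.10, adjusted p = 2.015e-07). The formyl peptide receptors FPR1, FPR2 and FPR3, which ANXA1 engages, averaged 0.123 FPKM or less in every population and were not tested.

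In the plasminogen system, on which the ANXA2 and S100A10 complex acts, 9 of 13 genes were tested. Of these 4 rose and 0 fell at the first step, 3 rose and 3 fell at the second, and 1 rose and 4 fell at the third. Among all tested genes 8.3% rose and 7.62% fell at the first step. At the second step 12.5% rose and 17.1% fell, and at the third 5.58% rose and 8.79% fell. PLG itself was listed at 0 in all libraries but CD43+ replicate 3, at 0.169 FPKM. PLAT, the tissue activator, averaged 2.25, 0.846, 12.8 and 3.79 FPKM along the populations, rising from APLNR+ to CD31+CD34+ cells (log2 change 2.90 ± 0.11, adjusted p = 9.048e-10) and falling to CD43+ cells (-1.53 ± 0.11, adjusted p = 3.64e-07). PLAU, the urokinase activator, averaged 7.88, 16.9, 18.8 and 5.17 FPKM, with a rise at the first step (1.01 ± 0.09, adjusted p = 1.49e-06) and a fall at the last (-1.69 ± 0.09, adjusted p = 2.035e-08). SERPINE2, a secreted protease inhibitor, rose from 12.8 to 399 FPKM at the first step and fell at each of the next (log2 changes 4.85, -2.54 and -2.04). MMP2, a matrix protease, averaged 5.07, 52.7, 118 and 22.6 FPKM, called up at the first 2 steps and down at the third (3.15, 1.15 and -2.34). MMP9 rose at the second step (1.67 ± 0.13). The receptor PLGRKT fell at that step and rose at the next (-1.80 and 1.43), and ENO1, a glycolytic enzyme that also binds plasminogen, was called at 0 of the 3.

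The other S100 genes were mostly silent, and 8 of 16 were tested. At the first step 0 rose and 0 fell, at the second 3 rose (S100A3, S100A13 and S100A16) and at the third 1 rose (S100A9) and 5 fell (S100A3, S100A13, S100A14, S100A16 and S100Z). S100A9 reached 1 FPKM in CD43+ libraries alone and S100Z in CD31+CD34+ libraries alone. The filter on low values thus partly set the direction of S100A9 and S100Z at the third step. Among all tested genes 8.3% rose and 7.62% fell at the first step, and 12.5% rose and 17.1% fell at the second. At the third 5.58% rose and 8.79% fell. S100A13 and S100A16 had the highest levels among the other S100 genes, followed by S100A3 with a mean of 9.07 FPKM in CD31+CD34+ cells. S100A13, which takes part in the release of growth factors without a signal peptide, averaged 63.5, 59.6, 206 and 56.1 FPKM, a rise and then a fall around the CD31+CD34+ stage (log2 changes 1.77 and -1.86, adjusted p = 2.411e-09 and 2.886e-09). S100A16 averaged 12.4, 9.04, 85.5 and 34.2 FPKM (3.10 and -1.30 at those steps, adjusted p = 1.831e-09 and 5.488e-06). In RefSeq order the chromosome 1 cluster begins with S100A10 and S100A11, passes the genes S100A9, S100A12, S100A8, S100A7A and S100A7, and reaches S100A6, S100A5 and S100A4 before S100A3. The 5 genes between S100A11 and S100A6 averaged 1.22 FPKM or less everywhere, and S100A5, lodged between S100A6 and S100A4, 0.202 or less. S100A4 overlaps S100A5 and a long noncoding gene in the annotation, S100A6 overlaps another, and S100A13 overlaps S100A1 and CHTOP. No strand is stated for the counting, so reads from the overlapping parts are uncertain. No 50-base stretch of S100A4 or S100A6 transcripts was shared with another GENCODE gene, whereas 1.9% of the 630 stretches of S100A11 were shared with AC006483.1. Of the other annexins only ANXA7 and ANXA11 were tested (2 of 7): ANXA7 averaged 23.8 to 37.6 FPKM and was never called, and ANXA11 rose from 19.2 FPKM in H1 to 42.0 in CD43+ cells (1.09 ± 0.21, adjusted p = 0.0004047).

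**Figure D4:**
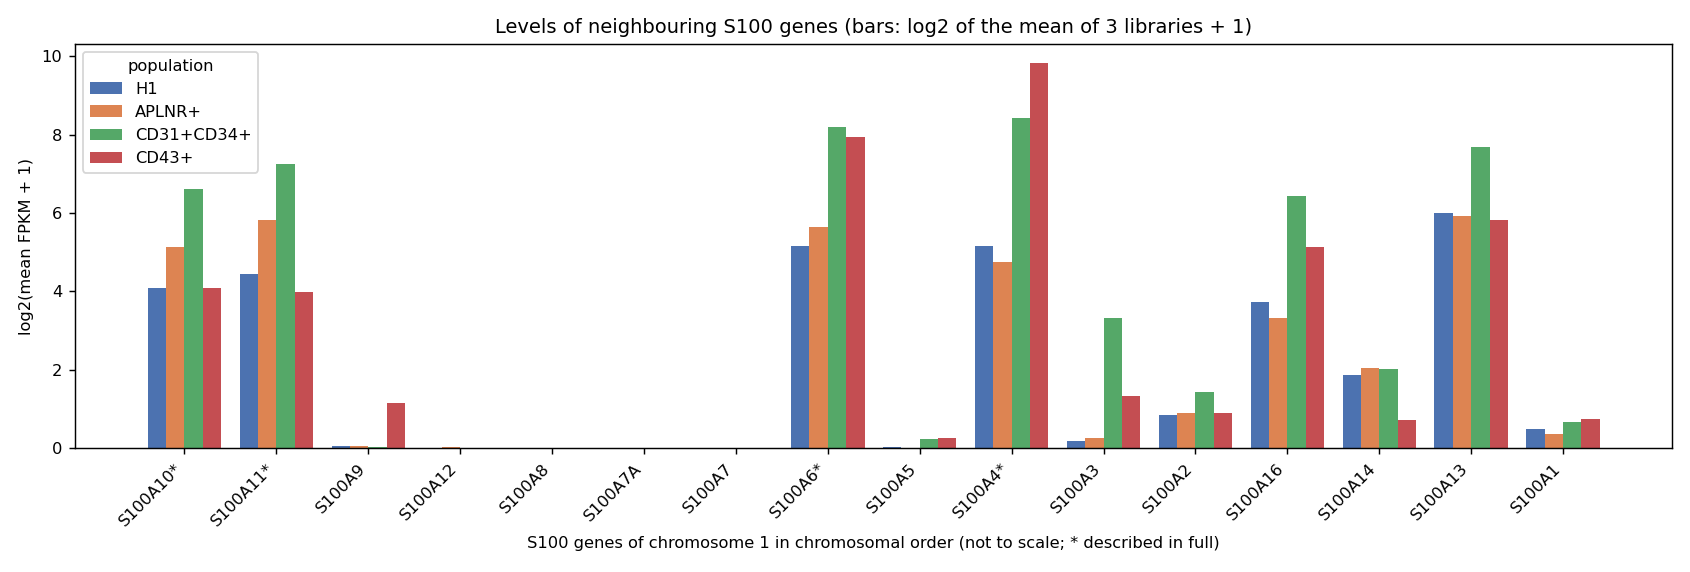
Level of the S100 genes of chromosome 1 in the 4 populations, as log2 of the mean FPKM of 3 libraries plus 1 (vertical axis), in chromosomal order (horizontal axis, not to scale); asterisks mark S100A10, S100A11, S100A6 and S100A4. The 5 genes between S100A11 and S100A6 have bars near 0 apart from S100A9 in CD43+ cells, and S100A4 has the tallest bar.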

How the data were processed

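RNA-seq was made from H1, APLNR+, CD31+CD34+ and CD43+ cells, 3 libraries each, grouped and numbered by sample title. Per the labels, RNA was taken up in Trizol and libraries were made with an Illumina TruSeq kit. The FPKM values of all libraries stand in 1 table that the authors deposited. The submitters' processing notes name BWA, Bowtie, RSEM and hg19, without versions or roles, and the annotation is not given in the sources used here.

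The 10 genes and all gene lists were chosen with earlier results of these data known. For symbols on several lines the highest was kept. Values were transformed as log2(FPKM + 1), and genes with at least 1 FPKM in at least 3 libraries entered. All 14840 genes were fitted in 1 limma model of the 4 populations (limma 3.58.1, R 4.3.3, trended eBayes). It was tested on simulated data, and p-values were adjusted after Benjamini and Hochberg within each comparison. Relative depth was the most frequent ratio between libraries of values between 0.0001 and 0.2 FPKM. Listed genes were named where a population mean reached 10 FPKM, up to 8 of each list, together with the 3 most correlated genes of each member; 1 gene so chosen is not reported here. Gene types and shared 50-base stretches came from GENCODE release 29. Same-numbered libraries deviated together (r of 0.192 to 0.392) in CD31+CD34+ and CD43+ cells, and (0.174 to 0.386) in H1 and CD43+ cells. No comparison was paired in the main model, and a replicate block was run only as an alternative. Alternatives covered pseudocount, filters, scaling, model, minimum change and left-out libraries. Python 3.11.15 did the rest.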

Additional observations from a re-analysis of the deposited data

How the results depend on the processing

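Of 960 values of the 10 genes under the alternatives that kept the 2-fold limit, 932 kept their direction and their side of the thresholds, 13 turned direction, 13 lost a call and 2 gained one. Many of these could not turn direction. None of the 10 genes was on several lines, so the 40 values with summed lines repeated the main ones. The replicate block, the filters, the untrended fit and leaving out a library of an uncompared population left the log2 change as it was and could alter only its p. Depth as reads is unknown, which limits low levels such as those of ANXA1 in H1. Scaling to protein-coding genes moved the median of all genes by over 0.1, from -0.116 to 0.07 at the first step and from -0.014 to -0.189 at the second, and median-of-ratios scaling and quantile normalization moved that of CD43+ against H1 from -0.103 to 0.015 and 0.016.

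The change of ANXA5 from APLNR+ to CD31+CD34+ cells turned to -0.053 with upper-quartile scaling, -0.20 with quantile normalization and -0.21 with protein-coding scaling, and with a library left out it ran from -0.091 to 0.15. That of ANXA6 turned to -0.046 and -0.00269 with the last 2 of these. S100A10 in CD43+ against H1 cells turned to 0.10 with quantile normalization, 0.15 with median-of-ratios scaling, 0.021 with replicates 2 and 3 alone, and ran from -0.042 to 0.034 with a library left out. None of these differences was called, and the cause was not tested. The calls of S100A11 at the first 2 steps were lost with no filter (adjusted p = 0.1026 and 0.0871), the first also with the compared populations alone (0.05618), and the second with quantile normalization (0.05579) and protein-coding scaling (0.05724).

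With no minimum change, 1 gene was lowered at the first step, 7 were raised at the second, and 6 were raised and 2 lowered in CD43+ against H1 cells. A minimum of 1.5-fold gave 5 raised and 2 lowered in that last comparison, and median-of-ratios scaling gave 0 lowered there. With a library left out, 4 to 6 genes were raised at the first step and 3 to 4 at the second, and the other 6 counts did not move. The replicate block changed no call or count of the 10 genes (40 of 40 values). With it the adjusted p of S100A11 was 4.901e-05, 2.572e-05, 1.388e-07 and 0.08504 in the 4 comparisons. The labels pair the libraries by no more than the number in any of these. In the first 2 comparisons same-numbered libraries had r of -0.021 to 0.429 and 0.025 to 0.196, and not every library correlated best with its own number.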
